A study of Mus musculus with 16 samples.

Results

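The transcripts of 40 genes that drive the cell cycle and copy DNA were followed through RNA-seq of bone-marrow-derived macrophages (BMDM). The genes were taken from a fixed list by symbol, and all 40 were found among the 9614 genes of the deposited table, so no member was lost to the filter on low values. They cover the G1 cyclins, the replicative helicase and its clamp, the enzymes of nucleotide synthesis, and the mitotic kinases, spindle, kinetochore and cytokinesis genes. The cells came from male C57BL/6 mice aged 8 weeks of 2 genotypes, LysM-Cre:NELF-B wt/wt, called WT, and LysM-Cre:NELF-B fl/fl, called KO because they lack NELF-B. NELF-B is a subunit of the negative elongation factor that holds RNA polymerase II near promoters. Both genotypes carry LysM-Cre, which is active in myeloid cells and deletes exon 4 of Nelfb where that exon is flanked by loxP sites. BMDM were left untreated (mice A and B of each genotype), or were given LPS (10 ng/ml), a component of bacterial outer membranes, for 1 hr without or with 100 nM of the glucocorticoid dexamethasone (Dex) (mice A, B and C of each genotype). This gave 16 libraries from 6 mice.

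Cells that divide pass from G1 into S phase, when DNA is copied, and then through G2 into mitosis. Many of the genes needed are switched on shortly before use: E2F factors drive those for S phase, while the DREAM and MuvB complexes with B-MYB and FOXM1 govern those for mitosis, often through a promoter element called CHR. BMDM multiply in culture under the growth factor CSF1, and inflammatory stimuli slow their division. In a bulk culture, fewer dividing cells and less of each transcript per cell cannot be told apart.

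The level in a library is given as log2 CPM, the log2 of the CPM unit (reads of a gene scaled to the library's total by the authors), so that a difference of 1 is a 2-fold difference. The libraries held 25030999 to 49730049 reads, and 3 reads amounted to 0.065 to 0.136 CPM, far under the level of every member. Nelfb was at 5.59 to 6.21 log2 CPM in the WT libraries and at 3.27 to 4.38 in the KO libraries, which did not overlap. The library of untreated WT mouse A stood apart from the rest, with correlations across genes of 0.830 to 0.909 with the others against 0.924 to 0.993 among those, and the counts and the main values that rest on it are also given without it. All 11 macrophage markers were in the table, among them Csf1r, and their summed level was 8946 to 15189 CPM in the WT and 12916 to 15286 CPM in the KO. Neutrophil markers (2 of 8, S100a8 and Mmp8) summed to 43.8 to 55.9 CPM in the WT and 56.1 to 102 CPM in the KO, and fibroblast markers (4 of 6) to 49.2 to 121.5 CPM and 81.01 to 145.3 CPM. Monocyte and progenitor markers (2 of 9, Ly6c2 and Ccr2) summed to 5.6 to 10.1 CPM and 5.9 to 9.4 CPM, and B cell markers (1 of 5, Cd79b) to 13.4 to 36.6 CPM and 14.0 to 39.7 CPM. 0 of the 9 erythroid, 5 T and NK cell or 4 mast cell markers were in the table analysed. The lowest WT sums of the macrophage markers (8946 CPM) and the fibroblast markers (49.2 CPM) were those of untreated WT mouse A.

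Most members carry the promoter letters known for this class of genes. RefSeq promoter windows (GRCm38.p6, 250 bases before to 50 after the start) were matched by symbol for 34 of the 40 members, and were searched on both strands for the CHR (TTTGAA or TTCGAA), the CCAAT box (CCAAT) and the E2F element (TTTCGCGC, TTTGGCGC, TTTCCCGC or TTTGCCGC). Where a gene has several windows, a match in any of them was counted. The CHR was found in 21 of 34 members (61.8%), against 16.2% of the 7399 genes of the table with a window and 21.7% of all 27025 genes. The CCAAT box was found in 28 of 34 (82.4%), against 42.6% and 41.1%, and 20 of 34 (58.8%) held both of these, against 7.9% and 9.7%. The E2F element was found in 5 of 34 (14.7%), against 4.9% and 2.6%. The letters differed by role. The 5 members with an E2F element were Mcm3, Mcm5, Mcm6 and Mcm7 of the replicative helicase and Cdk1, whereas all 4 matched genes of S/G2 and chromosome structure and both anaphase promoting complex genes had a CHR. 0 of the 4 nucleotide synthesis genes had a CHR or an E2F element with these letters in the window.

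**Figure D1:**
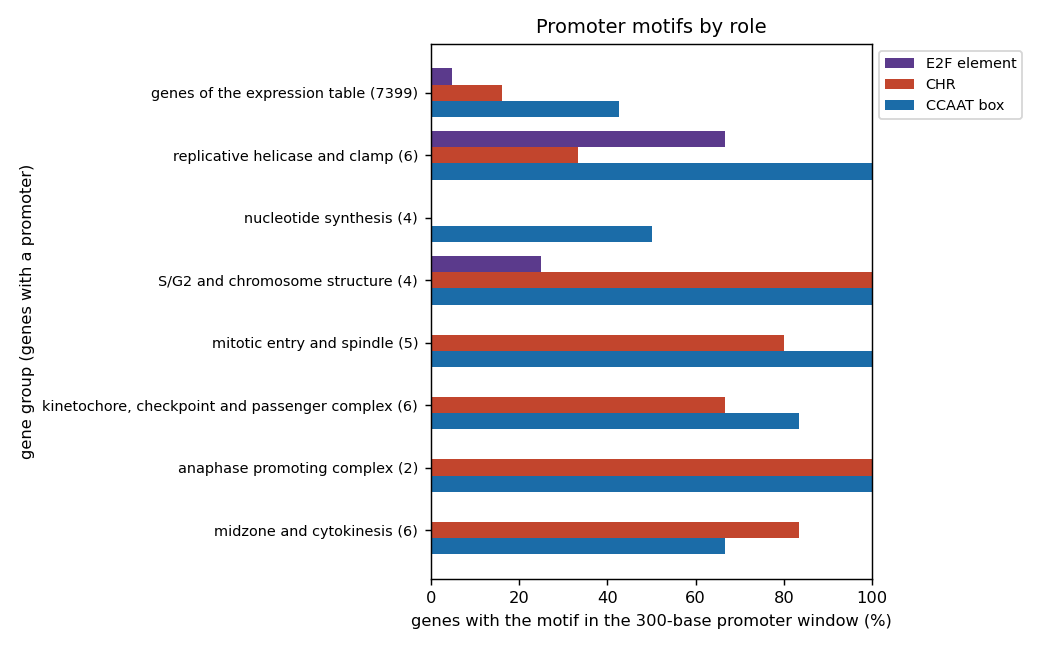
The bars give the percent of genes with an E2F element (purple), a CHR (red) or a CCAAT box (blue) in the 300-base promoter window, for all genes of the table with a window and for the members by role, with the number of genes in brackets. A role with a single matched gene is left out. E2F elements sit with the helicase genes, at 66.7%, and CHR elements with the later roles, at 66.7% to 100%.

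Windows of 5 members are shown for the contrast between the replication and the mitotic genes, and because Mki67 and Pcna later part from the other members. They are given 5′ to 3′ on the strand of the gene, and capitals mark a CHR, a CCAAT box or an E2F element on either strand. Adjacent or overlapping matches run together, as in Mcm5, where an E2F element on each strand shares letters.
Mcm5 (chr8:75109259-75109558, plus strand): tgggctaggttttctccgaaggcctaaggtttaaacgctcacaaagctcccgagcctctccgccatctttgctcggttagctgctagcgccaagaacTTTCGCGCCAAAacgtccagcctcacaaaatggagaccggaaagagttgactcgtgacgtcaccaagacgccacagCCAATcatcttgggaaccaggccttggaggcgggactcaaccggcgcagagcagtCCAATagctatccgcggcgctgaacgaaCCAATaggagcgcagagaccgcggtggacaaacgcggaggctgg
Cdk1 (chr10:69352863-69353162, minus strand): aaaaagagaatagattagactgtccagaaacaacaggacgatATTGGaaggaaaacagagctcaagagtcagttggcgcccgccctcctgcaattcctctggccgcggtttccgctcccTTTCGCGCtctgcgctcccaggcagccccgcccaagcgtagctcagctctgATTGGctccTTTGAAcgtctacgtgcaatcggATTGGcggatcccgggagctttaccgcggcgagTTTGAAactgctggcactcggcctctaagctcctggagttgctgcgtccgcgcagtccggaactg
Cdc20 (chr4:118437294-118437593, minus strand): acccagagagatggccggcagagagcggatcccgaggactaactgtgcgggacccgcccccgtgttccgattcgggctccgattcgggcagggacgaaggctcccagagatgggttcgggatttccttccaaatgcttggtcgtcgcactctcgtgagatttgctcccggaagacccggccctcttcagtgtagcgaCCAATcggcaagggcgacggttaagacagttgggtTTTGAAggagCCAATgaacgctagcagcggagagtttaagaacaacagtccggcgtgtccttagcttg
Mki67 (chr7:135716330-135716629, minus strand): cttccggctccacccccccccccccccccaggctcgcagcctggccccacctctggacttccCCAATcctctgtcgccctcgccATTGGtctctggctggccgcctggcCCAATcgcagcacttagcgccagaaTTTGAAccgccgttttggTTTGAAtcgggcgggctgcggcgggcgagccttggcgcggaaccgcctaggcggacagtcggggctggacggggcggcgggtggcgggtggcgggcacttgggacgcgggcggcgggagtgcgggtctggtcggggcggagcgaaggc
Pcna (chr2:132253131-132253430, minus strand): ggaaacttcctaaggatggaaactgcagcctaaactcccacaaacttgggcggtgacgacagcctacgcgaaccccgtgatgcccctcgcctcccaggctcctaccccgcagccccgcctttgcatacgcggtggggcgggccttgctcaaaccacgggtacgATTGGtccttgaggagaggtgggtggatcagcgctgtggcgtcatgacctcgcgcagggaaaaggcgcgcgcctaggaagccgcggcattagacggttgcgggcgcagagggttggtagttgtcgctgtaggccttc

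Mcm5 holds E2F elements and 3 CCAAT boxes, Cdk1 all 3 kinds of element, and Cdc20 a CHR between a pair of CCAAT boxes close to the start. Mki67 has a pair of CHR elements and 3 CCAAT boxes, as many as Ccnb2, and Pcna has a single CCAAT box. The windows are a description of letters and not of binding.

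The members differed widely in level. Per kilobase of exon (GENCODE vM21), Pcna, the sliding clamp of DNA polymerases, was the most abundant, with a mean over the 16 libraries of 6.38 log2 CPM per kb. It was followed by the helicase subunits Mcm6 (4.30) and Mcm3 (4.002) and by Mki67 (3.79), the proliferation antigen Ki-67 that coats mitotic chromosomes. The lowest were the kinetochore gene Cenpf (-0.97) and the thymidylate synthase gene Tyms (0.28). By role, the helicase and clamp genes ran from 2.33 to 6.38 and the midzone and cytokinesis genes from 0.73 to 1.99 log2 CPM per kb. Exon lengths are unions over all annotated transcripts, and Pcna, Tyms, Ccnb1 and Ccnb2 have annotated pseudogenes. Only unique reads were counted, so reads that match both a gene and its pseudogene may be missing from these levels.

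The members were lower in NELF-B KO than in WT macrophages under all 3 treatments, but 0 of 40 passed the test for genotype at an adjusted p under 0.05. Under LPS all 40 and under LPS + Dex all 40 had a lower mean in the KO, and in untreated cells 39 of 40, with Smc2 as the exception (0.04). The median difference over members, KO minus WT, was -0.58 log2 in untreated cells, -0.90 with LPS and -0.95 with LPS + Dex, against medians of 0.02, 0.00 and 0.01 over all genes. As folds, the medians were 1.497, 1.861 and 1.929 times lower. By limma and Benjamini-Hochberg adjustment over all genes, 0 of 9614 genes passed in any of these comparisons (0.0% of genes), and the smallest adjusted p of a member was 0.889 untreated, 0.254 with LPS and 0.172 with LPS + Dex. With voom on the recovered reads, 0 members passed as well.

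At an unadjusted p under 0.05, 2 members were lower in untreated KO cells, 37 with LPS and 39 with LPS + Dex, where 0.198%, 5.07% and 5.96% of all genes were lower in the KO by that measure. A difference beyond 2-fold was seen in 2, 10 and 15 of 40 members, against 0.978%, 0.957% and 1.11% of all genes. Every KO library was below every WT library of the same treatment for 33 of 40 members untreated, 36 with LPS and 37 with LPS + Dex, where 13.8%, 7.82% and 8.83% of all genes were so placed. Over all 16 libraries, whatever the treatment, 27 of 40 members had no KO library as high as any WT library, against 2.09% of all genes. The 13 others were Ccnd1, Mcm2, Mcm4, Pcna, Tyms, Mki67, Smc2, Ccnb2, Bub1, Cenpf, Kif23, Ect2 and Anln. No member had all KO libraries above all WT libraries. The libraries of an animal are not independent of each other, so the count over 16 libraries describes 3 mice against 3 mice.

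**Figure D2:**
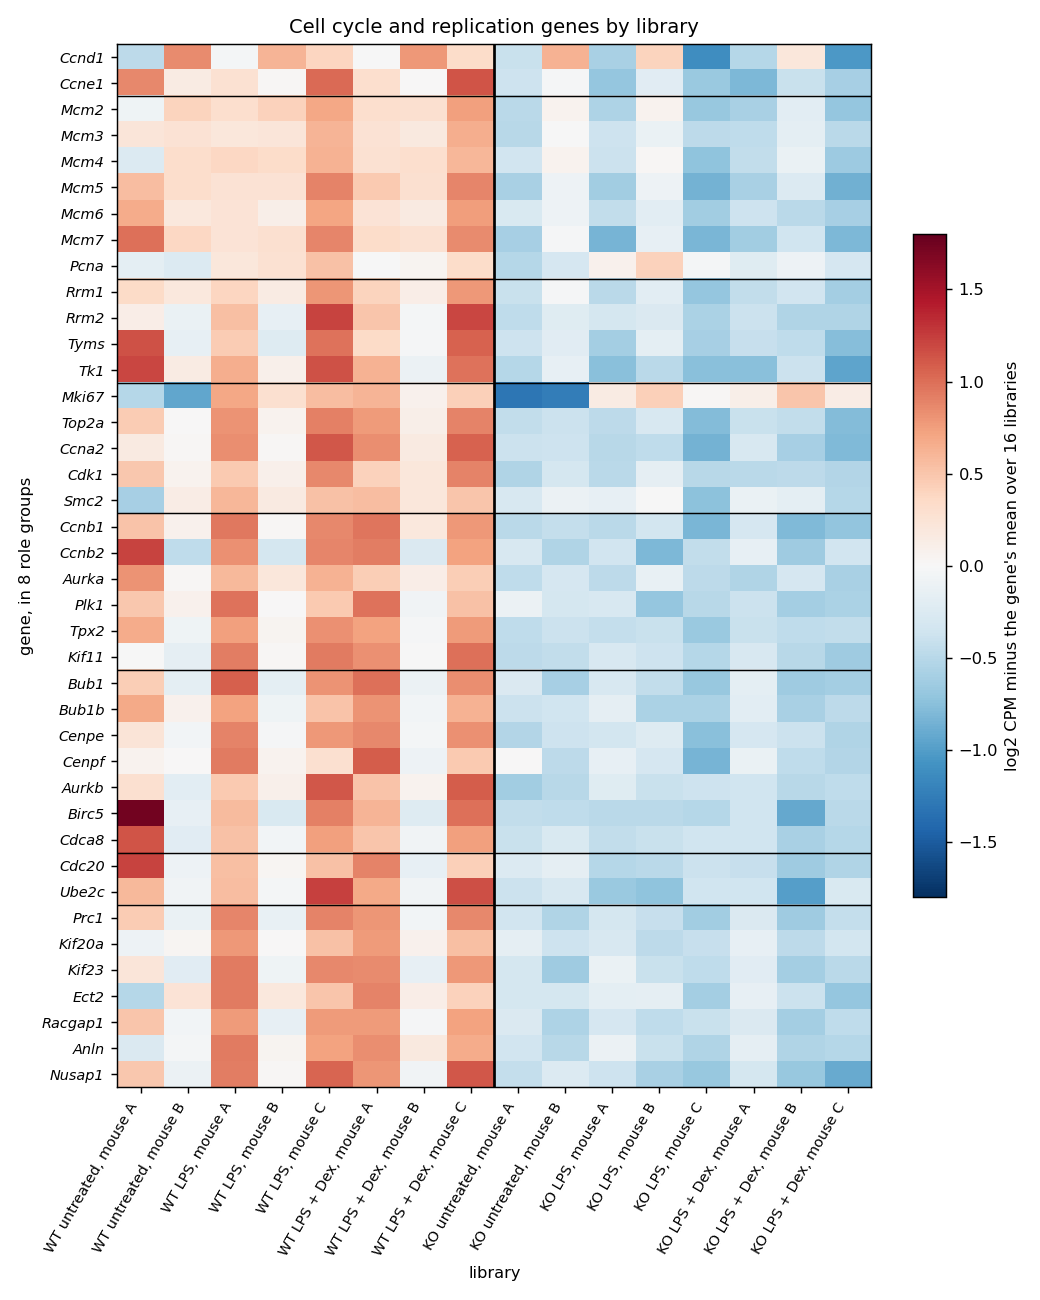
Each row is a member and each column a library, with WT on the left and NELF-B KO on the right of the black line, and colour gives the log2 CPM minus the gene's mean over the 16 libraries. Thin lines part the 8 role groups from G1 cyclins at the top to cytokinesis at the bottom. The WT columns of mice A and C are mostly red, those of WT mouse B are near white, and the KO columns are blue, with Ccnd1, Pcna and Mki67 as the rows that stand out.

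The mice of the WT were unlike each other. The median over the 40 members was 4.85, 5.00 and 4.95 log2 CPM in WT mouse A (untreated, LPS and LPS + Dex), 5.00 and 5.03 in WT mouse C (LPS and LPS + Dex), and 4.14, 4.14 and 4.20 in WT mouse B. In the KO it was 3.73, 3.87 and 3.90 in mouse A, 3.76, 3.71 and 3.63 in mouse B, and 3.64 and 3.61 for mouse C. WT mouse B therefore lay between the other WT mice and the KO mice, and it was the lowest WT mouse for 37 of 40 members when the LPS and LPS + Dex libraries of a mouse were averaged. The summed level of the members was 1333 to 2215 CPM in the WT libraries and 948 to 1309 CPM in the KO libraries, which did not overlap. The range over the 3 mice of a genotype had a median over members of 0.82 log2 in the WT and 0.38 in the KO.

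**Figure D3:**
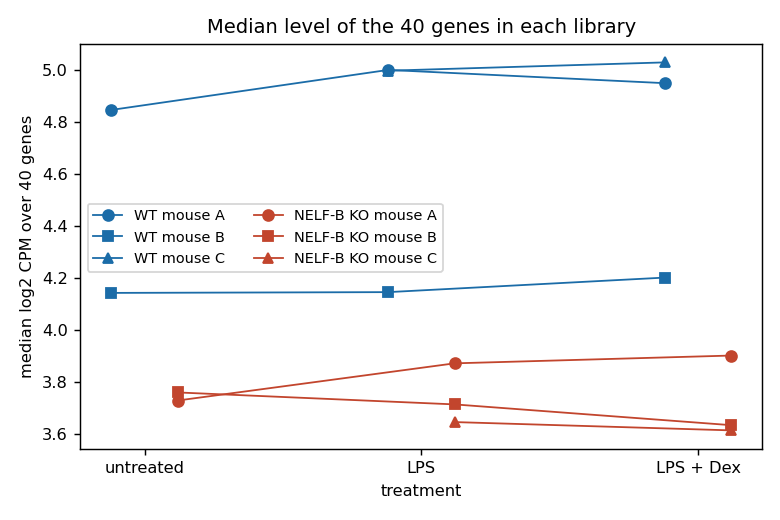
Each point is the median log2 CPM of the 40 genes in a library, by treatment, with WT in blue and NELF-B KO in red, the mouse given by the marker, and lines joining the libraries of a mouse. The WT mice A and C lie at 4.85 to 5.03, WT mouse B at 4.14 to 4.20 and the KO mice at 3.61 to 3.90.

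The letters of the mice were assigned here. The library labels print a tag shared by the genotypes within a treatment only for the untreated libraries of the mice called B. With LPS and LPS + Dex, the WT libraries of mouse B print no tag. Labels of the mice called C print tags of like form but different number, and those of the mice called A share no tag. What a tag stands for is not said, so the letter is not known to be a batch. KO and WT were also compared within each letter. The median difference over members with LPS was -1.06, -0.34 and -1.40 for letters A, B and C, and -1.01, -0.51 and -1.35 with LPS + Dex. In untreated cells it was -0.80 in mice A and -0.32 in mice B. All 40 members were lower in the KO within letters A and C under both treatments, and in mice B 37 were lower with LPS and 39 with LPS + Dex. With the letter as a term, 0 members passed with LPS and 3 with LPS + Dex (Anln, Ccnb1 and Ube2c, all lower in the KO), against 0.166% of all genes lower. With all 16 libraries and the mouse as a random effect, an alternative chosen after seeing the data, 3 members passed with LPS (Rrm1, Top2a and Tpx2) and 7 with LPS + Dex (Mcm3, Mcm5, Rrm1, Top2a, Ccna2, Cdk1 and Ccnb1), all lower in the KO, against 0.125% and 0.281% of all genes. WT mouse B was the lowest WT mouse for 37 of 40 members, so leaving it out widens the difference between genotypes by that choice. Without WT mouse A or WT mouse C instead, 0 members passed with LPS and 0 with LPS + Dex. Without the library of WT mouse B, 19 members passed with LPS and 28 with LPS + Dex, all lower in the KO, against 0.78% and 1.19% of all genes lower. In untreated cells this left the library that stood apart as the only WT library, with the spread taken from the KO libraries, and 24 members passed as lower beside 21.1% of all genes lower and 43.7% called in either direction.

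Without the library of untreated WT mouse A, WT mouse B was the only untreated WT library. The median difference over members in untreated cells was then -0.36, and 39 of 40 were lower in the KO. By limma 0 members passed, and 5 were lower at an unadjusted p under 0.05, against 1.29% of all genes. A difference beyond 2-fold was seen in 0 members, against 0.686% of all genes, and both KO libraries were below the WT library for 38 of 40, against 33.7% of all genes. Among the members described below, the untreated difference became -0.74 for Ccnd1, -0.66 for Mcm5, -0.48 for Tk1, -0.30 for Birc5 and -0.34 for Mki67.

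Of 11 macrophage markers, 2 were placed with the same split of the mice in the opposite direction, and the others were not. With LPS and LPS + Dex, WT mouse B and the KO mice were both above WT mice A and C for 2 of 11 markers, Emr1, which encodes the surface protein F4/80, and Csf1r, the receptor of CSF1. WT mouse B alone was above them for 3 (Itgam, Lyz1 and Mrc1) and below them for Cd68, at 10.10 to 10.12 log2 CPM against 10.43 to 10.65. The KO mice alone were above them for Lyz2, and for the other 4 (Mertk, Fcgr1, Cd14 and Spi1) the levels overlapped. Emr1 was at 10.97, 11.62 and 11.54 log2 CPM in WT mouse A (untreated, LPS and LPS + Dex), 12.008 and 12.004 in WT mouse C (LPS and LPS + Dex), 12.44, 12.51 and 12.46 in WT mouse B, and 12.31 to 12.49 in all KO libraries. Emr1 was picked after its values were seen, and the part of these markers in the difference between genotypes was not tested. How many of all genes were placed in these ways was not counted, so the marker counts have no background beside them.

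Among the G1 cyclins, Ccne1, the partner of Cdk2 at entry into S phase, followed the general pattern. In the WT, Ccne1 was at 4.33 and 3.60 log2 CPM untreated (mice A and B), 3.74, 3.49 and 4.48 with LPS (mice A, B and C) and 3.77, 3.46 and 4.60 with LPS + Dex. In the KO, Ccne1 was at 3.08 and 3.44 untreated, 2.77, 3.26 and 2.80 with LPS and 2.65, 3.06 and 2.86 with LPS + Dex. Every KO library lay below every WT library. The difference between KO and WT was -0.96 (SE 0.27, adjusted p = 0.317) with LPS and -1.08 (SE 0.29, adjusted p = 0.224) with LPS + Dex by limma.

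Ccnd1, the cyclin D1 gene that answers to growth factors, did not. In the WT, Ccnd1 was at 4.82 and 6.15 log2 CPM untreated (mice A and B), 5.25, 5.90 and 5.67 with LPS (mice A, B and C) and 5.28, 6.07 and 5.62 with LPS + Dex. In the KO, Ccnd1 was at 4.89 and 5.92 untreated, 4.70, 5.69 and 4.17 with LPS and 4.78, 5.50 and 4.26 with LPS + Dex. The levels of the genotypes overlapped, and mouse B was the highest of its genotype in both. KO minus WT was -0.07 (SE 0.58, adjusted p = 0.972) untreated, -0.75 (SE 0.37, adjusted p = 0.691) with LPS and -0.81 (SE 0.33, adjusted p = 0.42) with LPS + Dex by limma. Over the 16 libraries, Ccnd1 followed the median of the other members least closely, with r = 0.267, next to Mki67 (0.354) and Pcna (0.477), while r was above 0.8 for 33 of 40 members. These correlations share the libraries and their split by genotype, and are a description.

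The genes of the replicative helicase, Mcm2 to Mcm7, form the ring that unwinds DNA at the fork. Mcm5 stands for them. In the WT, Mcm5 was at 6.16 and 5.92 log2 CPM untreated (mice A and B), 5.86, 5.86 and 6.49 with LPS (mice A, B and C) and 6.07, 5.89 and 6.48 with LPS + Dex. In the KO, Mcm5 was at 5.01 and 5.51 untreated, 4.97, 5.51 and 4.74 with LPS and 5.01, 5.36 and 4.74 with LPS + Dex. No KO library reached the level of a WT library, with the highest KO level (5.51, mouse B) close to the lowest WT level (5.86). The difference was -0.78 (SE 0.30, adjusted p = 0.889) untreated, -0.99 (SE 0.24, adjusted p = 0.263) with LPS and -1.11 (SE 0.20, adjusted p = 0.172) with LPS + Dex by limma. For the 6 Mcm genes the differences with LPS ran from -0.66 (Mcm3) to -1.07 (Mcm7).

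The helicase genes set the mice apart in another way than the mitotic genes did. The mean over the 7 helicase and clamp genes with LPS was 6.60 in WT mouse C, 6.16 for A and 6.17 for B (log2 CPM), so that WT mouse B was level with mouse A. In the KO this mean was 5.45, 5.89 and 5.29, in the order A, B, C, with mouse B the highest. For the 6 genes of mitotic entry and spindle the means, in the same order, were 4.68, 3.85 and 4.62 in the WT and 3.47, 3.40 and 3.29 in the KO. The lower level of WT mouse B was thus larger in the mitotic than in the helicase genes in these libraries, a difference that was not tested.

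The genes of nucleotide synthesis supply the building blocks of DNA. Rrm2 encodes the small subunit of ribonucleotide reductase, which is made in S phase. In the WT, Rrm2 was at 5.22 and 4.98 log2 CPM untreated (mice A and B), 5.64, 4.95 and 6.32 with LPS (mice A, B and C) and 5.60, 5.06 and 6.30 with LPS + Dex. In the KO, Rrm2 was at 4.64 and 4.88 untreated, 4.78, 4.84 and 4.53 with LPS and 4.71, 4.56 and 4.56 with LPS + Dex. WT mouse C was well above the others, and KO minus WT within mice B was -0.10 untreated, -0.11 with LPS and -0.50 with LPS + Dex. The difference was -0.92 (SE 0.31, adjusted p = 0.428) with LPS and -1.04 (SE 0.28, adjusted p = 0.231) with LPS + Dex by limma.

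Tk1, thymidine kinase of the salvage pathway, had the largest difference of any member with LPS. In the WT, Tk1 was at 4.87 and 3.81 log2 CPM untreated (mice A and B), 4.31, 3.76 and 4.82 with LPS (mice A, B and C) and 4.29, 3.57 and 4.65 with LPS + Dex. In the KO, Tk1 was at 3.15 and 3.51 untreated, 2.91, 3.18 and 2.91 with LPS and 2.92, 3.28 and 2.71 with LPS + Dex. The KO libraries were all below the WT libraries, and the difference was -1.01 (SE 0.44, adjusted p = 0.889) untreated, -1.30 (SE 0.26, adjusted p = 0.254) with LPS and -1.20 (SE 0.29, adjusted p = 0.203) with LPS + Dex by limma. Rrm1, the large subunit of ribonucleotide reductase, differed by -0.91 with LPS, and Tyms by -0.86.

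In the group of S/G2 and chromosome structure, Top2a, the topoisomerase that untangles sister chromatids, and Cdk1, the kinase that starts mitosis, were lower in every KO library. In the WT, Top2a was at 6.67 and 6.22 log2 CPM untreated (mice A and B), 7.03, 6.28 and 7.13 with LPS (mice A, B and C) and 6.98, 6.32 and 7.11 with LPS + Dex. In the KO, Top2a was at 5.78 and 5.84 untreated, 5.75, 5.93 and 5.43 with LPS and 5.81, 5.77 and 5.44 with LPS + Dex. The difference for Top2a was -1.11 (SE 0.24, adjusted p = 0.254) with LPS and -1.13 (SE 0.22, adjusted p = 0.172) with LPS + Dex by limma.

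Cdk1 gave a smaller difference with less spread. In the WT, Cdk1 was at 5.64 and 5.23 log2 CPM untreated (mice A and B), 5.63, 5.26 and 6.02 with LPS (mice A, B and C) and 5.57, 5.36 and 6.05 with LPS + Dex. In the KO, Cdk1 was at 4.62 and 4.84 untreated, 4.68, 4.99 and 4.67 with LPS and 4.68, 4.69 and 4.64 with LPS + Dex. Its difference was -0.86 (SE 0.20, adjusted p = 0.254) with LPS and -0.99 (SE 0.17, adjusted p = 0.172) with LPS + Dex by limma. Ccna2, the cyclin A2 gene whose product joins Cdk2 and Cdk1, differed by -1.26 and -1.25, and Smc2, a condensin subunit, by -0.73 and -0.69.

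With LPS, the genes of mitotic entry and spindle had the largest median difference of the role groups (-1.003), next to the anaphase promoting complex (-0.997). With LPS + Dex their median was -0.963, behind the anaphase promoting complex (-1.027), nucleotide synthesis (-1.025) and S/G2 and chromosome structure (-0.991). Ccnb1 encodes cyclin B1, the partner of Cdk1. In the WT, Ccnb1 was at 4.30 and 3.87 log2 CPM untreated (mice A and B), 4.75, 3.82 and 4.65 with LPS (mice A, B and C) and 4.75, 3.98 and 4.58 with LPS + Dex. In the KO, Ccnb1 was at 3.30 and 3.36 untreated, 3.31, 3.46 and 2.98 with LPS and 3.48, 2.99 and 3.08 with LPS + Dex. WT mice A and C were well above WT mouse B with LPS, and the KO mice lay lower still. The difference was -1.16 (SE 0.26, adjusted p = 0.254) with LPS and -1.25 (SE 0.23, adjusted p = 0.172) with LPS + Dex by limma.

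Plk1, a kinase of mitotic entry and spindle assembly, gave a like picture. In the WT, Plk1 was at 3.92 and 3.50 log2 CPM untreated (mice A and B), 4.40, 3.44 and 3.90 with LPS (mice A, B and C) and 4.40, 3.36 and 3.96 with LPS + Dex. In the KO, Plk1 was at 3.33 and 3.12 untreated, 3.14, 2.74 and 2.94 with LPS and 3.04, 2.81 and 2.87 with LPS + Dex. Its difference was -0.97 (SE 0.25, adjusted p = 0.271) with LPS and -1.001 (SE 0.25, adjusted p = 0.205) with LPS + Dex by limma. The spindle motor gene Kif11 differed by -1.01 and -1.08, the spindle assembly factor Tpx2 by -1.03 and -0.92, and the kinase gene Aurka by -0.83 and -0.81. For Ccnb2, cyclin B2, WT mouse B (3.49) was below KO mouse A (3.60) with LPS + Dex, so that its groups overlapped there.

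All 7 genes of the kinetochore, checkpoint and passenger complex had non-overlapping groups with LPS and with LPS + Dex. Birc5 encodes survivin, a subunit of the passenger complex with Aurkb and Cdca8. In the WT, Birc5 was at 5.61 and 3.71 log2 CPM untreated (mice A and B), 4.43, 3.58 and 4.77 with LPS (mice A, B and C) and 4.47, 3.63 and 4.85 with LPS + Dex. In the KO, Birc5 was at 3.42 and 3.40 untreated, 3.38, 3.37 and 3.35 with LPS and 3.50, 2.94 and 3.37 with LPS + Dex. Untreated WT mouse A, the library that stood apart, had the highest Birc5 level (5.61), and the next was at 4.85 (WT mouse C with LPS + Dex). The difference was -1.25 (SE 0.65, adjusted p = 0.889) untreated, -0.90 (SE 0.28, adjusted p = 0.38) with LPS and -1.05 (SE 0.31, adjusted p = 0.256) with LPS + Dex by limma. Bub1 and Bub1b, kinases of the spindle checkpoint, differed with LPS by -1.04 and -0.82, and the kinetochore genes Cenpe and Cenpf by -0.99 and -0.86.

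Cdc20 and Ube2c serve the anaphase promoting complex, the ubiquitin ligase that lets sister chromatids part. In the WT, Cdc20 was at 4.51 and 3.20 log2 CPM untreated (mice A and B), 3.83, 3.33 and 3.82 with LPS (mice A, B and C) and 4.18, 3.15 and 3.73 with LPS + Dex. In the KO, Cdc20 was at 3.06 and 3.13 untreated, 2.78, 2.80 and 2.91 with LPS and 2.88, 2.65 and 2.75 with LPS + Dex. KO libraries lay below WT libraries throughout. The difference for Cdc20 was -0.83 (SE 0.17, adjusted p = 0.254) with LPS and -0.93 (SE 0.25, adjusted p = 0.231) with LPS + Dex by limma, and for Ube2c it was -1.17 and -1.13. The 7 genes of the midzone and cytokinesis (Prc1, Kif20a, Kif23, Ect2, Racgap1, Anln and Nusap1) differed by -0.84 to -1.21 with LPS and by -0.78 to -1.26 with LPS + Dex, and the groups of all 7 did not overlap in either.

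**Figure D4:**
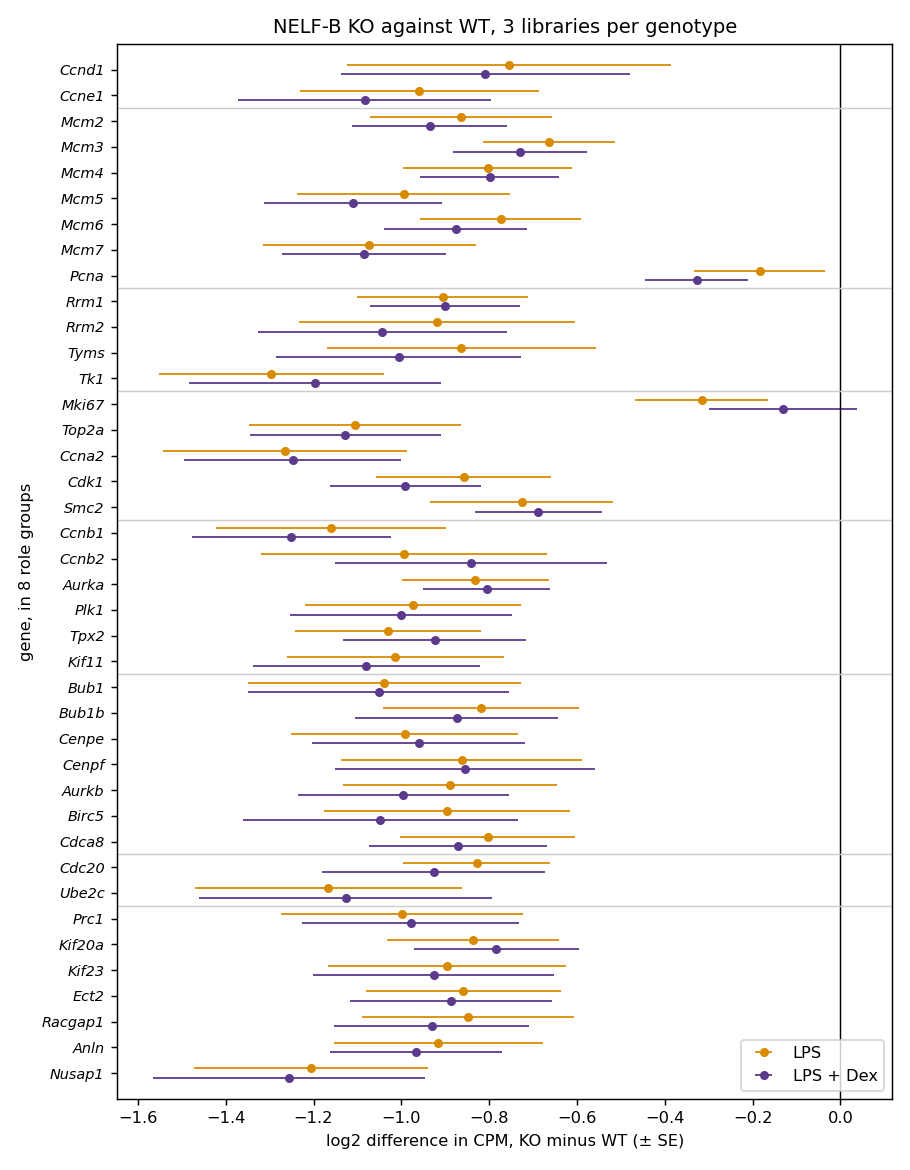
Points give the log2 difference in CPM, KO minus WT, of each member with LPS (orange) and with LPS + Dex (purple), with the standard error of the limma fit as bars and 3 libraries per genotype. All points are below 0, from -1.30 (Tk1 with LPS) to -0.13 (Mki67 with LPS + Dex), and Pcna and Mki67 are the closest to 0.

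Mki67 and Pcna departed from the other members. Mki67 (chr7:135689784-135716361, minus strand) rose after 1 hr of LPS in both genotypes. In the WT, Mki67 was at 6.61 and 6.19 log2 CPM untreated (mice A and B), 7.82, 7.41 and 7.68 with LPS (mice A, B and C) and 7.73, 7.21 and 7.55 with LPS + Dex. In the KO, Mki67 was at 5.82 and 5.88 untreated, 7.27, 7.56 and 7.14 with LPS and 7.22, 7.62 and 7.25 with LPS + Dex. Within each of the 4 mice with an untreated library it was higher with LPS, by 1.21, 1.23, 1.45 and 1.68 log2 in WT A, WT B, KO A and KO B. The change was 1.24 (SE 0.22, adjusted p = 0.028) in the WT and 1.47 (SE 0.16, adjusted p = 0.000899) in the KO by limma, or 2.36-fold and 2.77-fold. In the WT the change was 1.45 (adjusted p = 0.0365) without untreated mouse A, and the adjusted p was 0.124 without LPS mouse A, 0.120 without LPS mouse C and 0.283 with mice A and B alone.

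After LPS the genotypes overlapped in Mki67: KO mouse B, at 7.56, was above WT mouse B, at 7.41. KO minus WT was -0.55 (SE 0.28, adjusted p = 0.889) untreated, -0.32 (SE 0.15, adjusted p = 0.678) with LPS and -0.13 (SE 0.17, adjusted p = 0.835) with LPS + Dex by limma. The change with LPS in the KO minus that in the WT was 0.23 (SE 0.28, adjusted p = 0.736) by limma, and 0.02 without untreated WT mouse A. With the mouse as a block and all libraries it was 0.33 (SE 0.12, adjusted p = 0.414).

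Pcna (chr2:132249162-132253314, minus strand) rose after LPS in the KO. In the WT, Pcna was at 7.46 and 7.40 log2 CPM untreated (mice A and B), 7.84, 7.92 and 8.17 with LPS (mice A, B and C) and 7.64, 7.69 and 7.97 with LPS + Dex. In the KO, Pcna was at 7.12 and 7.34 untreated, 7.72, 8.06 and 7.60 with LPS and 7.43, 7.55 and 7.33 with LPS + Dex. With LPS it was higher within all 4 mice, by 0.38 and 0.52 in WT A and B and by 0.60 and 0.71 in KO A and B. The change was 0.55 (SE 0.17, adjusted p = 0.219) in the WT, which did not pass the threshold of 0.1, and 0.56 (SE 0.14, adjusted p = 0.0764) in the KO by limma. The adjusted p in the KO was 0.416 or 0.182 without either untreated library (mouse A or B), 0.154 and 0.123 without the LPS library of mouse A or B, and 0.142 and 0.108 without the LPS + Dex library of mouse A or C. With the mouse as a block it was 2.00e-05 in the KO and 0.112 in the WT. KO minus WT was -0.18 (SE 0.15, adjusted p = 0.89) with LPS and -0.33 (SE 0.12, adjusted p = 0.358) with LPS + Dex.

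Of the remaining members 0 passed for LPS in either genotype. In all, 1 of 40 members rose in the WT and 2 of 40 in the KO, where 2.81% and 4.55% of all genes rose, and 0 of 40 fell, where 0.759% and 2.88% of all genes fell. The median change over members was 0.32 log2 in the WT and -0.09 in the KO, but mouse C of each genotype enters these means without an untreated library. Within WT mice A and B the medians were 0.37 and 0.00, and within KO mice A and B -0.03 and -0.01. Without untreated WT mouse A the WT median was 0.52. That value sets the LPS libraries of WT mice A, B and C against untreated WT mouse B alone, so differences between mice enter it. Higher levels with LPS in all 4 mice were found for 8 of 40 members (Pcna, Mki67, Smc2, Kif11, Cenpe, Aurkb, Kif23 and Anln), against 21.9% of all genes, and lower levels in all 4 for 5 of 40 (Ccne1, Mcm6, Mcm7, Tk1 and Birc5), against 18.7%.

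Since the untreated, LPS and LPS + Dex libraries of a mouse come from the same animal, the fit was repeated with the mouse as a block. In the WT it called Mki67 alone again, at 1.22 (SE 0.10, adjusted p = 0.00423), against 4.57% of all genes. In the KO it called 7 members, against 31.2% of all genes. Mki67 (1.55), Pcna (0.63) and the kinase gene Aurkb (0.25) rose, and Ccnd1 (-0.24), Ccne1 (-0.28), Plk1 (-0.27) and Cdc20 (-0.28) fell, with adjusted p of 9.48e-08 and 2.00e-05 for Mki67 and Pcna and of 0.0792, 0.0544, 0.0641, 0.0622 and 0.0884 for the others, in that order.

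No member passed the test for Dex added to LPS for the same 1 hr. By limma, 0 of 40 members passed in the WT, against 0.27% of all genes, and 0 of 40 in the KO, against 2.3%. At an unadjusted p under 0.05, 0 members in the WT and 1 in the KO (Pcna) were set apart, against 2.54% and 6.58% of all genes. Within the mice the median change over members was -0.01, -0.02 and -0.02 in WT A, B and C, and 0.04, -0.16 and 0.02 in KO A, B and C. KO mouse B was thus the mouse with the largest change, with 35 of 40 members lower with Dex. Over all 6 mice, the changes of single members ran from -0.50 (Pcna in KO mouse B) to 0.35 (Cdc20 in WT mouse A).

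Pcna had the largest decrease with Dex of all members in each of the 6 mice. It was lower with LPS + Dex than with LPS by 0.20, 0.23 and 0.20 in WT A, B and C and by 0.29, 0.50 and 0.27 in KO A, B and C. The difference was -0.21 (SE 0.15, adjusted p = 1) in the WT and -0.35 (SE 0.13, adjusted p = 0.523) in the KO by limma. With the mouse as a block it was -0.35 in the KO (SE 0.05, adjusted p = 0.000818), and Pcna was the 1 member that passed, against 14.2% of all genes, whereas the adjusted p in the WT was 1. Lower levels with Dex in all 6 mice were found for 3 of 40 members (Pcna, Aurka and Kif23), against 10.4% of all genes. The rise of Mki67 with LPS was not followed by a like decrease: LPS + Dex minus LPS was -0.14 (SE 0.20, adjusted p = 1) in the WT and 0.04 (SE 0.14, adjusted p = 1) in the KO.

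**Figure D5:**
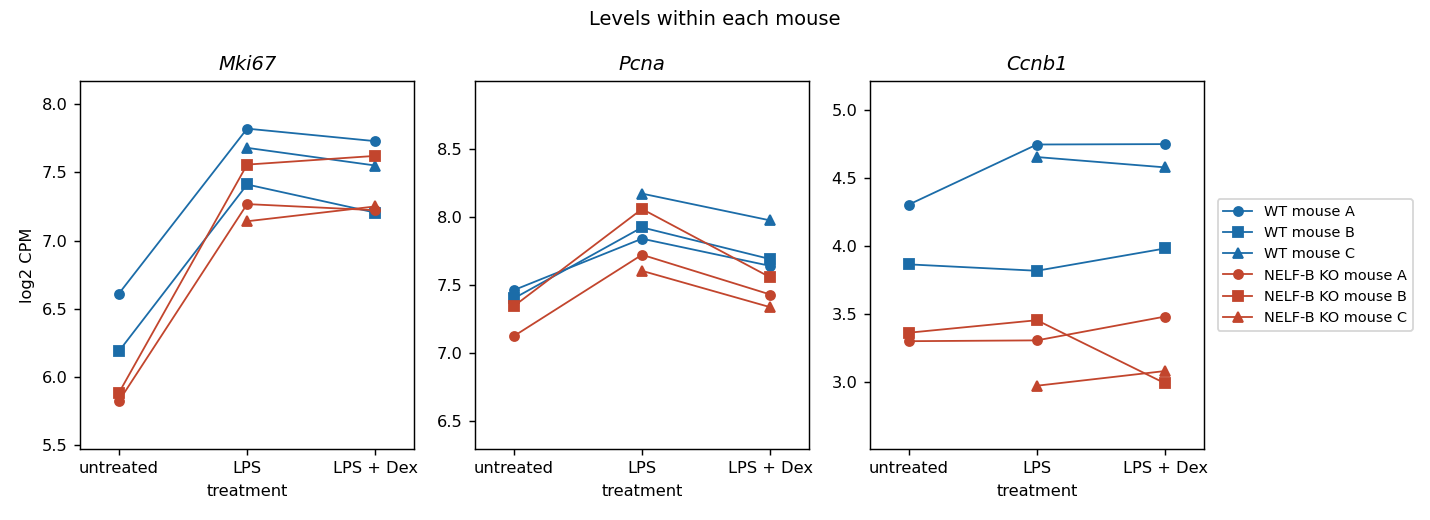
Lines follow each mouse from untreated to LPS and LPS + Dex on the log2 CPM scale, with WT in blue and NELF-B KO in red, for Mki67, Pcna and Ccnb1, and the 3 axes span the same number of log2 units. Mki67 is 1.21 to 1.68 higher with LPS in the 4 mice with an untreated library, Pcna is higher with LPS and lower again with Dex (by 0.20 to 0.50), and the WT lines of Ccnb1 lie above all its KO lines.

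The genotypes were not shown to differ in their response to either agent. For the difference in the LPS response 0 of 40 members and 0 of 9614 genes (0.0%) passed by limma, and at an unadjusted p under 0.05 there was 1 member, Smc2 (-0.77, SE 0.35, adjusted p = 0.690), against 2.3% of all genes. Without untreated WT mouse A, Smc2 was at -0.41 and Mki67 at 0.02. With the mouse as a block, 0 members passed by limma, and Smc2 was at -0.55 (SE 0.33, adjusted p = 0.414). The members under an unadjusted p of 0.05 were then Mki67 (0.33, SE 0.12, adjusted p = 0.414) and Plk1 (-0.47, SE 0.20, adjusted p = 0.414). By that measure 195 of 9614 genes were higher and 201 lower. For the difference in the Dex response 0 members and 0 genes (0.0%) passed, and 0 members had an unadjusted p under 0.05. With voom on the recovered reads both counts were 0 as well.

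Genes of the same processes outside the list were mostly at lower means in the KO with LPS and LPS + Dex, where 5.07% and 5.96% of all genes were lower at an unadjusted p under 0.05. Among 48 other mitotic genes in the table (54 listed), 40 with LPS and 42 with LPS + Dex were lower at an unadjusted p under 0.05 and 0 were higher, with median differences of -0.93 and -0.98. Among 43 genes of licensing and the replisome (44 listed), 29 and 29 were lower and 1 and 1 higher, with medians of -0.56 and -0.60. In untreated cells 0 of the 48 and 1 of the 43 were lower at that p, with medians of -0.52 and -0.42. Of the E2F and RB factors 7 and 8 of 16 were lower, and of the other cyclins, CDKs and phosphatases 7 and 8 of 15, with 1 and 0 higher. In untreated cells 0 and 2 were lower, and 9 of the 16 E2F and RB factors had a higher mean in the KO (median 0.08). Of these genes 0 passed at an adjusted p under 0.05. The 4 CDK inhibitors in the table had medians of -0.06 and -0.18, and 0 were lower and 1 was higher at an unadjusted p under 0.05.

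For the treatments, the genes of these lists that passed an adjusted p under 0.1 by limma are named here. With LPS, 2.81% of all genes rose in the WT and 4.55% in the KO, and 0.759% and 2.88% fell. With Dex, 0.27% of all genes passed in the WT and 2.3% in the KO. Cdkn1a, the CDK inhibitor p21 that halts cells in G1, rose with LPS by 1.48 (SE 0.20, adjusted p = 0.00648) in the WT and by 1.93 (SE 0.22, adjusted p = 0.00127) in the KO. It was the 1 CDK inhibitor called in each genotype, of 4 in the table. Ccng2, a cyclin linked to cell cycle arrest, rose by 1.81 (SE 0.30, adjusted p = 0.0212) in the WT and 1.83 (SE 0.19, adjusted p = 0.000797) in the KO. Without untreated WT mouse A the WT changes were 1.46 (adjusted p = 0.0347) for Cdkn1a and 1.68 (adjusted p = 0.129) for Ccng2. In the KO, Hmgb2, a chromatin protein, rose by 2.01 (SE 0.12, adjusted p = 3.64e-05), while Gins3 and Fen1 of the replisome fell by 0.93 and 0.63 (adjusted p = 0.0217 and 0.0903). The WT changes of these 3 were 1.43, -0.63 and 0.20 and did not pass, and the difference between the genotypes did not pass for any of them.

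With Dex, Cdkn1b, the inhibitor p27, rose by 0.70 (SE 0.10, adjusted p = 0.0181) in the KO. Gins3 rose by 1.11 (SE 0.16, adjusted p = 0.0161) and the mitotic inhibitor kinase gene Wee1 by 1.08 (SE 0.24, adjusted p = 0.0956) in the KO. In the WT, 0 genes of these lists passed for Dex, but the changes were 0.55 for Cdkn1b, 0.90 for Gins3 and 1.11 for Wee1, and the difference between the genotypes did not pass for any of them. The lists were chosen with results of these data known and describe the samples at hand.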

How the data were processed

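Gene expression was measured by polyA RNA-seq (50 bp paired reads) in 16 BMDM libraries from 6 mice. The authors mapped reads to mm10 (CLC Bio Genomic Workbench), took the unique reads in exons as counts, scaled these by TMM in edgeR and deposited log2 CPM for 9614 genes. The processing notes also name CASAVA 1.8 and FastQC. The filter that left these genes is not given in the sources used here. Columns of the authors' own p-values and FDR for pairwise comparisons were not used. The deposited log2 values rise in whole steps under 3 CPM, which gave 25030999 to 49730049 reads per library. Depth and replicate number limit the precision, and intervals over so few mice are wide.

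Here, limma 3.58.1 (lmFit, eBayes with trend) under R 4.3.3 was fitted to the deposited log2 values over all genes, with Benjamini-Hochberg adjustment, no pseudocount and no further filter. KO against WT used the libraries of that treatment (adjusted p under 0.05). LPS and Dex used the 8 libraries of a genotype and differences in response all 16 (adjusted p under 0.1). No fold threshold was set. Each library is a culture of 1 mouse. In the main comparisons of KO with WT, p-values measure the spread between mice of a group. The main fits for LPS, Dex and differences in response hold several libraries of a mouse and treat them as independent. Only the fits with the mouse as a block use the pairing. Mouse numbers in the labels pair the libraries: deviations of same-mouse libraries from the group means correlated across genes by 0.781 to 0.939 for LPS and LPS + Dex and by 0.185 to 0.822 for untreated and LPS.

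The members, the other gene lists, the motifs and the thresholds were chosen with earlier results of these data known. Values in every library were printed for 13 members fixed by role and for up to 6 members called per comparison. Gene positions and exon lengths came from GENCODE vM21 (GRCm38, the assembly of mm10), and promoters from RefSeq. Summaries were made with Python 3.11.15, numpy 2.4.6 and pandas 2.3.3. The fit was tested on simulated data. Alternatives were a block for the mouse letter, a replicate block (mouse), other sets of libraries and centring on the median gene. Further ones were leaving out genes at a mean log2 CPM of 1 or less, log2(CPM + 1), voom on recovered reads, a fold threshold, unadjusted p and leaving out each library.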

Additional observations from a re-analysis of the deposited data

Results flagged for a closer look

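Mcm2, Mcm4 and Ccna2 were higher with LPS than untreated in both WT mice with an untreated library and lower in both KO mice. How many of all genes have this pattern was not counted, and several of the changes are close to no change. The mean change within KO mice minus that within WT mice was -0.233 log2 for Mcm2, -0.356 for Mcm4 and -0.444 for Ccna2. In the WT the changes ran from 0.005 to 0.386 for Mcm2, from 0.003 to 0.625 for Mcm4 and from 0.012 to 0.682 for Ccna2, where the small values are those of mouse B and the large ones those of mouse A, whose untreated library stood apart. In the KO they ran from -0.068 to -0.007, from -0.044 to -0.041 and from -0.111 to -0.083. This opposite direction itself was not tested, and the limma fit over all 16 libraries did not pass for the difference in LPS response of these 3 genes. Groups of 2 or 3 libraries are too small for a test of single outlying libraries, and none was made.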

How the results depend on the processing

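For KO against WT, the counts of members called (0 under each treatment) stayed at 0 with the single fit of 16 libraries, the filter on mean log2 CPM, centring, log2(CPM + 1), voom and a fold threshold. They became 3 with LPS + Dex with the mouse letter as a block (against 0.166% of all genes lower). Under the replicate block as a random effect over 16 libraries they were 3 with LPS and 7 with LPS + Dex (0.125% and 0.281%). At an unadjusted p they were 2 untreated, 37 with LPS and 39 with LPS + Dex. Leaving out each library in turn gave 0 to 24 untreated, 0 to 19 with LPS and 0 to 28 with LPS + Dex, where the highest values are those without WT mouse B (21.1%, 0.78% and 1.19% of all genes lower). The untreated WT arm is then the library that stood apart alone, and 43.7% of all genes were called. In all these fits every called member was lower in the KO. The median difference over members ranged over the alternatives from -0.86 to -0.36 untreated, -1.16 to -0.76 with LPS and -1.19 to -0.79 with LPS + Dex.

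For LPS against untreated, the count of 1 in the WT became 0 with mice A and B alone. It was 2 in the single fit of 16 libraries (against 12.3% of all genes). With the replicate block over 16 libraries it was 13 (10 higher, 3 lower, against 44.7%). At an unadjusted p it was 4 (against 13.7%). The replicate block in the WT libraries left it at 1. When an LPS or LPS + Dex library was left out it was 0 or 1. Leaving out an untreated WT library leaves 1 mouse in that arm, so no count is given there. In the KO the count of 2 became 7 with the replicate block, 1 with a fold threshold and 1 to 2 when a library was left out. Mki67 kept its direction in all alternatives, with changes of 1.03 to 1.45 in the WT and 1.35 to 1.56 in the KO, and Pcna in the KO with 0.43 to 0.67. For Dex in the KO the count of 0 became 1, Pcna, with the replicate block in the KO libraries (against 14.2% of all genes). It was also 1 with that block over 16 libraries (3.35%) and 1 at an unadjusted p (6.58%). In the WT it stayed at 0 in all alternatives. The replicate block changed no other call in the comparisons of treatments. For the difference in LPS response the count became 1 at an unadjusted p and ranged from 0 to 4 when a library was left out, with 4 reached without untreated WT mouse B, against 48.5% of all genes, and for Dex it stayed at 0. The causes of these changes were not tested. Each member lies far above 3 reads in every library, and the part of depth in these calls was not tested. Each genotype had 2 untreated libraries, and no mouse C was sampled untreated.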
